A study of Mus musculus with 9 samples.

Results

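The transcripts of the mitochondrial genome were analysed in ovaries of juvenile mice on 3 successive days. They were taken as every gene whose symbol begins with mt-, which gave 37 of the 52025 genes listed in each library. These comprised 13 mRNAs, 2 rRNAs and 22 tRNAs, which is the full gene content of the mouse mitochondrial genome. Kunming mice, with no treatment or genotype in the labels, were sampled on postnatal day 14, 15 or 16 (PD14, PD15, PD16), with 3 libraries for each day. Within these days the study placed iFFA, the step at which a growing follicle first forms its fluid-filled cavity, the antrum. The question put here was whether the transcripts made inside mitochondria changed over them, and levels were read in FPKM, that is mapped fragments scaled to the length of the transcript and to the depth of the library. The study describes whole ovaries, whereas the labels give ovary as the tissue and granulosa cells as the source.

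Mitochondrial DNA is a small circle that is transcribed from both strands into long precursors. The tRNAs lie between most of the other genes, and their excision by nucleases releases the mRNAs and rRNAs. All of its mRNAs encode subunits of the respiratory complexes and of ATP synthase, and the remaining subunits come from nuclear genes. The polymerase, the ribosomal proteins and the enzymes that charge the tRNAs are nuclear as well. Growing oocytes and steroid-making cells of the ovary are both known to be rich in mitochondria.

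All 9 libraries held markers of several ovarian cell types, so the material was not granulosa cells alone by its RNA. The 8 granulosa cell markers summed to 2517 to 3356 FPKM per library. The 10 oocyte markers summed to 1111 to 1360.5 FPKM at PD14, 1449 to 1541 FPKM at PD15 and 1054 to 1128 FPKM at PD16. The 6 theca and interstitial cell markers summed to 1134 to 2191 FPKM. In bulk RNA of this kind, fewer cells of a type and less RNA per cell cannot be told apart. Each library held 20.4 to 28.7 M mapped fragments, and mitochondrial transcripts took 1.96% to 2.59% of the fragments and 5.19% to 6.27% of the summed FPKM. All 262 member values above 0 came out as whole fragments within 0.01 of a fragment, so the number of fragments behind each level could be recovered. No libraries were identical.

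A stretch of nuclear DNA repeats part of the mitochondrial genome, and it bears on how levels within the set can be read. On chromosome 1 of the mm10 build, 7 annotated pseudogenes on the minus strand between chr1:24611535-24616197 copy chrM:6381-11042 (4662 bases). Of these 7 pseudogenes, 5 were identical to their mitochondrial gene over the whole length that they share. The gene Gm28661 is one of them, and it copies mt-Co2. The first 60 bases of mt-Co2 (chrM:7013-7072, plus strand) are shown because the same bases open Gm28661, so a fragment from one cannot be told from a fragment of the other:
mt-Co2: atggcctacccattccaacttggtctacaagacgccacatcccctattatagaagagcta

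The mt-Co1 copy Gm29216 differs at 6 bases, all of them near the edge of the copied stretch. The edge is shown for both, from base 1054 of mt-Co1 (chrM:6381-6440) and from the first base of Gm29216 (chr1:24616138-24616197, minus strand), with the differing bases in capitals:
mt-Co1: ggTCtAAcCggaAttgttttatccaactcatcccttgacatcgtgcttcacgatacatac
Gm29216: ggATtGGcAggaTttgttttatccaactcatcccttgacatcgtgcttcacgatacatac
After base 1066 of mt-Co1 no further difference was found in the 492 bases of this copy.

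Of the 37 members, 11 lay wholly inside the copied stretch, namely 6 mRNAs (mt-Co2, mt-Atp8, mt-Atp6, mt-Co3, mt-Nd3, mt-Nd4l) and 5 tRNAs (mt-Ts1, mt-Td, mt-Tk, mt-Tg, mt-Tr). Over windows of 50 bases, 100% of those in mt-Co2 also occurred in a nuclear transcript, 99.5% in mt-Atp6, 99.9% in mt-Co3, 98.0% in mt-Nd3 and 98.8% in mt-Nd4l. The share was 62.2% in mt-Nd4 and 51.1% in mt-Co1, which reach beyond the stretch, 8.19% in mt-Nd2, 7.61% in mt-Nd5 and 1.04% in mt-Rnr2. It was 0% in mt-Nd1, mt-Nd6, mt-Cytb and mt-Rnr1.

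The levels of the mRNAs split by this stretch. The 7 mRNAs that are not wholly inside it lay between 794 and 7921 FPKM in every library, while the 6 inside it lay between 1.30 and 108 FPKM. The treatment of fragments that match several places is not given in the sources used here, and its part in this difference was not tested. The level of each mRNA inside the stretch is therefore uncertain, and only its values between days are compared. The 7 copies themselves were listed at 7.49 to 79.7 FPKM. The highest was Gm28438, the copy of mt-Nd3, at 46.7 to 79.7 FPKM, and mt-Nd3 was at 0.0853 to 0.148 times its level in the same library. Gm10925, the copy of mt-Atp6, was at 31.2 to 44.4 FPKM, and mt-Atp6 was at 0.832 to 1.01 times its level. The ratio of gene to copy was 1.56 to 3.04 for mt-Co2, 0.935 to 1.31 for mt-Co3 and 0.783 to 1.18 for mt-Nd4l. Gm28439, which copies the first 876 bases of mt-Nd4, was at 7.49 to 10.4 FPKM, and mt-Nd4 was at 84.3 to 116 times its level. For mt-Co1 and its copy Gm29216 the ratio was 240.4 to 319.

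**Figure D1:**
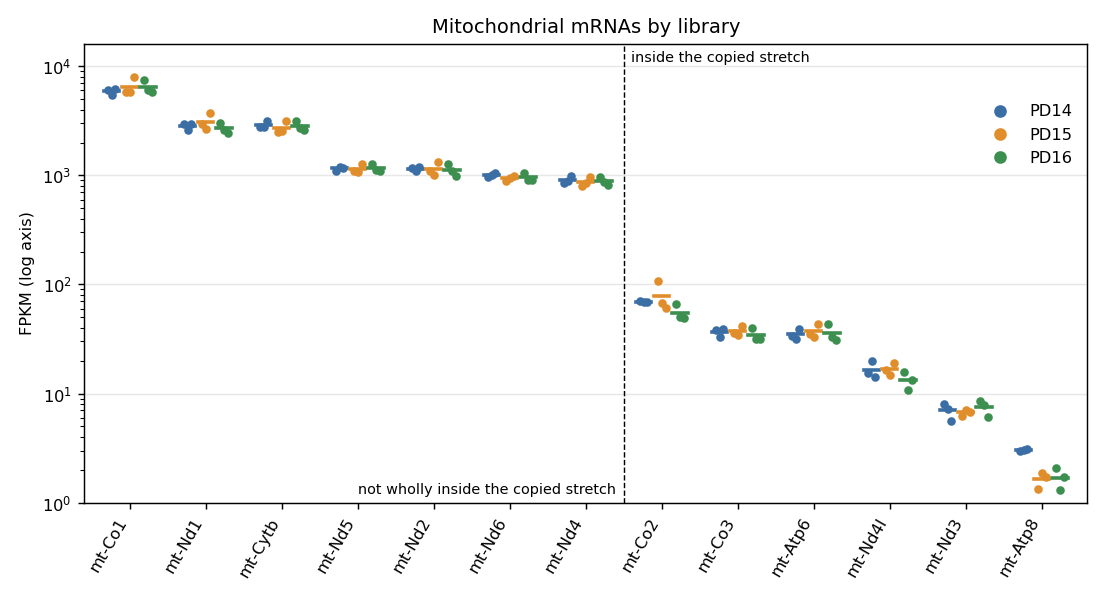
FPKM of the 13 mitochondrial mRNAs on a log axis, with a point for each library, a bar for the mean of 3 libraries and colours for the day. The 7 mRNAs to the left of the dashed line lie at 794 FPKM or above in every library and the 6 inside the copied stretch at 108 FPKM or below.

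Among the mRNAs not wholly inside the stretch, mt-Co1 was listed highest, although its last 492 bases lie in the stretch. It encodes the catalytic subunit of cytochrome c oxidase (complex IV), and its level was 6081, 5502 and 6199 FPKM in the PD14 libraries, 5830, 5768 and 7921 FPKM at PD15 and 7489, 6107 and 5824 FPKM at PD16. Each of these values rests on 195093 to 351623 fragments. The days overlapped, with PD15 replicate 3 and PD16 replicate 1 above the rest. On the log2(FPKM + 1) scale, used for all changes below, mt-Co1 differed by 0.12 (SE 0.25, adjusted p = 0.862, limma) between PD15 and PD14 and by 0.12 (SE 0.25, adjusted p = 0.812, limma) between PD16 and PD14. The 95% interval of either change was -0.43 to 0.67.

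Both mt-Nd1 and mt-Cytb followed, and their ranges overlapped. The cytochrome b gene mt-Cytb, the sole mitochondrially encoded subunit of complex III, was at 2746, 2792 and 3139 FPKM at PD14, 2471, 2576 and 3121 FPKM at PD15 and 3156, 2745 and 2584 FPKM at PD16. The complex I subunit gene mt-Nd1 was at 2930, 2629 and 2937 FPKM at PD14, 2973, 2673 and 3697 FPKM at PD15 and 3049.7, 2609 and 2441 FPKM at PD16. For neither gene did any pair of days separate. The fitted change from PD15 to PD16 was 0.06 for mt-Cytb (SE 0.18, adjusted p = 0.930, limma) and -0.20 for mt-Nd1 (SE 0.19, adjusted p = 0.710, limma). For both, the 95% interval spans 0, from -0.34 to 0.46 and from -0.63 to 0.23.

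The 4 remaining complex I genes that are not wholly inside the stretch were listed at similar levels. Over the 9 libraries, mt-Nd5 was at 1067 to 1279 FPKM, mt-Nd2 at 980.3 to 1332 FPKM, mt-Nd6 at 878 to 1059 FPKM and mt-Nd4 at 794 to 978 FPKM. The range of mt-Nd5 lay wholly above that of mt-Nd6, and mt-Nd2 overlapped both. The level of mt-Nd4, whose first 876 bases are copied, is subject to the same uncertainty as those inside the stretch and is not ranked. The gene mt-Nd6 is the only mRNA gene on the minus strand of the reference, and the sources used here do not say whether counting used strand. Fragments from mt-Nd6 and from the opposite transcript that spans it cannot then be told apart. The coefficient of variation over the 9 libraries was 6.61% for mt-Nd6, 6.85% for mt-Nd5 and 7.95% for mt-Nd4, the lowest among the 13 mRNAs, against 13.2% for mt-Co1. From PD14 to PD16 the 95% interval of the change was -0.28 to 0.30 for mt-Nd5 and -0.32 to 0.25 for mt-Nd4.

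Inside the copied stretch, mt-Co2, which encodes the subunit of complex IV that takes electrons from cytochrome c, was at 70.5, 69.0 and 68.5 FPKM at PD14, 108, 67.9 and 60.7 FPKM at PD15 and 65.5, 50.2 and 49.0 FPKM at PD16. All PD16 libraries were below all PD14 libraries, and the high PD15 value came from replicate 1 alone. The change from PD14 to PD16 was -0.34 (SE 0.19, adjusted p = 0.320, limma) and from PD15 to PD16 -0.48 (SE 0.19, adjusted p = 0.293, limma), and neither passed the threshold of an adjusted p under 0.05. Without PD15 replicate 1 the second change was -0.23 (adjusted p = 0.512, limma). Its identical copy Gm28661 was listed at 33.6 to 43.8 FPKM at PD14, 31.1 to 36.1 FPKM at PD15 and 24.0 to 29.3 FPKM at PD16, and this copy fell from PD14 to PD16 by 0.57 (SE 0.11, adjusted p = 0.0283, limma). How fragments were shared between the 2 rows was not tested. Gm28661 was the 1 copy called among the 7 tested, where 4.25% of all genes were called, and the call was in this comparison alone. It was lost without PD14 replicate 1 or 3 and without any single PD16 library, and the adjusted p ran from 0.0214 to 0.0993 over all alternatives (limma).

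The other genes of the stretch, apart from mt-Atp8, did not pass the test. The complex IV subunit gene mt-Co3 was at 31.4 to 41.6 FPKM over the 9 libraries, and mt-Atp6, which encodes the proton channel subunit of ATP synthase, at 30.9 to 43.7 FPKM. The complex I subunit genes mt-Nd4l and mt-Nd3 were at 10.7 to 20.1 FPKM and at 5.64 to 8.56 FPKM. For these 4 genes, all pairs of days overlapped, and the adjusted p of each change was 0.298 or above.

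The mRNA listed at the lowest level, with the limit given for the stretch, was mt-Atp8, which encodes a small membrane subunit of ATP synthase. Its gene is shown whole (chrM:7766-7969, plus strand, 204 bases) because it carries the one change called among the members, with the 43 bases that it shares with the start of mt-Atp6 in capitals:
mt-Atp8: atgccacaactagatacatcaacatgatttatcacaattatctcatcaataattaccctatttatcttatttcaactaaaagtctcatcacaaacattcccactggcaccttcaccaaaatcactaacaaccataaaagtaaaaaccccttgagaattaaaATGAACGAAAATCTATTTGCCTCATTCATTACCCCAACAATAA
No annotated nuclear transcript held any 50-base window of it. Its last 43 bases, however, lie in the part copied by Gm10925. The rest of it lies between the parts copied by Gm28661 and Gm10925. The unannotated gap between those pseudogenes is 233 bases on chromosome 1 and 233 bases between the matching mitochondrial positions.

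The level of mt-Atp8 was 3.00, 3.04 and 3.13 FPKM in the PD14 libraries, 1.35, 1.85 and 1.71 FPKM at PD15 and 2.06, 1.30 and 1.73 FPKM at PD16. All 3 PD14 libraries were above all 6 later ones, and PD15 and PD16 overlapped. The fitted change was -0.63 from PD14 to PD15 (SE 0.12, adjusted p = 0.0552, limma), which did not pass, and -0.60 from PD14 to PD16 (SE 0.12, adjusted p = 0.0288, limma), which did. At a level this low the size depends on the pseudocount, and the second change was -0.84 with a pseudocount of 0.1 and -0.16 with one of 10. From PD15 to PD16 it was 0.03 (SE 0.12, adjusted p = 0.952, limma).

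These values rest on few fragments, with 15, 15 and 13 at PD14, 7, 9 and 10 at PD15 and 10, 6 and 9 at PD16. Pooled over a day, the exact 95% Poisson interval, which covers counting error only, was 2.21 to 4.11 FPKM at PD14, 1.07 to 2.39 FPKM at PD15 and 1.10 to 2.51 FPKM at PD16. The PD14 interval overlaps both others, but overlap of such intervals does not by itself show that counting error covers the difference. The SD between the PD14 libraries was 0.0652 FPKM, whereas counting alone gives an SD of 0.807 FPKM at this depth, so the spread seen on that day was smaller than counting error gives. Leaving out any single PD14 library raised the adjusted p of the change to PD16 to between 0.0616 and 0.0993 (limma). Leaving out PD16 replicate 2 gave 0.0632 and leaving out PD16 replicate 3 gave 0.0569 (limma).

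Marker sums of some cell types were also highest at PD14, without overlap for the endothelial, surface epithelium and fat lists. The 5 red blood cell markers summed to 105 to 147 FPKM at PD14, 46.4 to 63.2 FPKM at PD15 and 60.8 to 116 FPKM at PD16. The 4 endothelial markers summed to 52.5 to 55.5, 49.2 to 51.6 and 46.7 to 49.3 FPKM on these days, and the 6 of surface epithelium and oviduct to 52.3 to 59.3, 46.3 to 51.8 and 39.5 to 44.0 FPKM. The 5 fat markers summed to 6.78 to 7.96, 4.30 to 4.62 and 4.14 to 5.85 FPKM, but this was nearly all Plin1 (6.31 to 7.71, 4.10 to 4.32 and 3.89 to 5.37 FPKM), the only 1 of the 5 that passed the filter. Of the 4 surface epithelium and oviduct markers tested, 3 were called lower from PD14 to PD16 by limma, where 1.89% of all genes were. Plin1 was called lower from PD14 to both later days, and 1 of 5 red blood cell markers from PD14 to PD15. Of the 4 endothelial markers, 0 were called. Of all genes, 0.678% were called from PD14 to PD15 and 4.25% from PD14 to PD16, in either direction. No alternative fits are given for these marker calls. In these lists 0 markers were at 0 in every library, and the part of these cells in the change of mt-Atp8 was not tested. The 6 stroma markers summed to 538 to 630.0 FPKM at PD14, above the 464 to 535 FPKM of PD15 and overlapping the 536 to 562 FPKM of PD16. The theca and interstitial cell markers summed to 1559 to 2191, 1134 to 1716 and 1166 to 1581 FPKM and the granulosa cell markers to 2696 to 3356, 2517 to 2895 and 2688 to 3170.3 FPKM on the 3 days, so the highest library was one of PD14 for both, with overlap. The granulosa cell markers did not move as one from PD14 to PD16, with 3 of 8 higher and 5 lower, where 52.2% of all genes were higher. Amh was called at 0.47 (SE 0.08, adjusted p = 0.0223, limma) and Cyp19a1 at -0.84 (SE 0.17, adjusted p = 0.0316, limma). For Cyp19a1 the direction is opposite to that of the study, which reports by qRT-PCR a rise on PD15 and PD16. Leaving out PD14 replicate 1 or 3 or PD16 replicate 1 lost both calls, and leaving out PD16 replicate 2 or 3 lost that of Cyp19a1 (adjusted p of up to 0.0848 for Amh and 0.1003 for Cyp19a1). The part of these cells was not tested either. The 5 macrophage markers summed to 16.5 to 20.4 FPKM and the 5 smooth muscle markers to 266 to 405 FPKM, and their highest libraries were of PD15 and PD16.

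Counted over the 3 comparisons, 1 change among the 13 mRNAs passed the test. From PD14 to PD15, 6 were higher and 7 lower, with a median change of -0.02 against 0.01 over all 15495 genes tested. With each library left out this median ran from -0.0765 (without PD15 replicate 3) to 0.0675 (without PD15 replicate 2), so it has no stable sign. By limma, 0 of 13 were called, where 0.678% of all genes were, and 1 of 13 (mt-Atp8) had an unadjusted p under 0.05, against 14.7% of all genes. The libraries of the 2 days did not overlap for 1 of 13, against 20.6% of all genes, or 10.2% in the lower direction.

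From PD14 to PD16, 4 mRNAs were higher and 9 lower, with a median change of -0.05, and scaling the libraries to an equal summed FPKM made this 2 higher and 11 lower. That scaling also moved all genes down, with 47% of them higher against 52.2% in the main fit. The median of the 13 mRNAs was -0.146 without PD16 replicate 1, -0.0340 without PD16 replicate 2 and 0.0239 without PD16 replicate 3. The single call, mt-Atp8, was 1 of 13, where 4.25% of all genes were called and 1.89% were called as lower. It was also the 1 of 13 with an unadjusted p under 0.05, against 22.8% of all genes. The libraries did not overlap for 2 of 13 (mt-Co2 and mt-Atp8, both lower), against 28.5% of all genes, or 13.5% in this direction.

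From PD15 to PD16, 7 mRNAs were higher and 6 lower, with a median change of 0.00, and 6 were higher and 7 lower under each of the 3 other scalings. The median ran from -0.110 (without PD16 replicate 1) to 0.0656 (without PD15 replicate 3). By limma 0 of 13 were called, against 0.729% of all genes, and 1 (mt-Co2) had an unadjusted p under 0.05, against 14.1%. The libraries overlapped for all 13, where they did not for 19.6% of all genes.

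**Figure D2:**
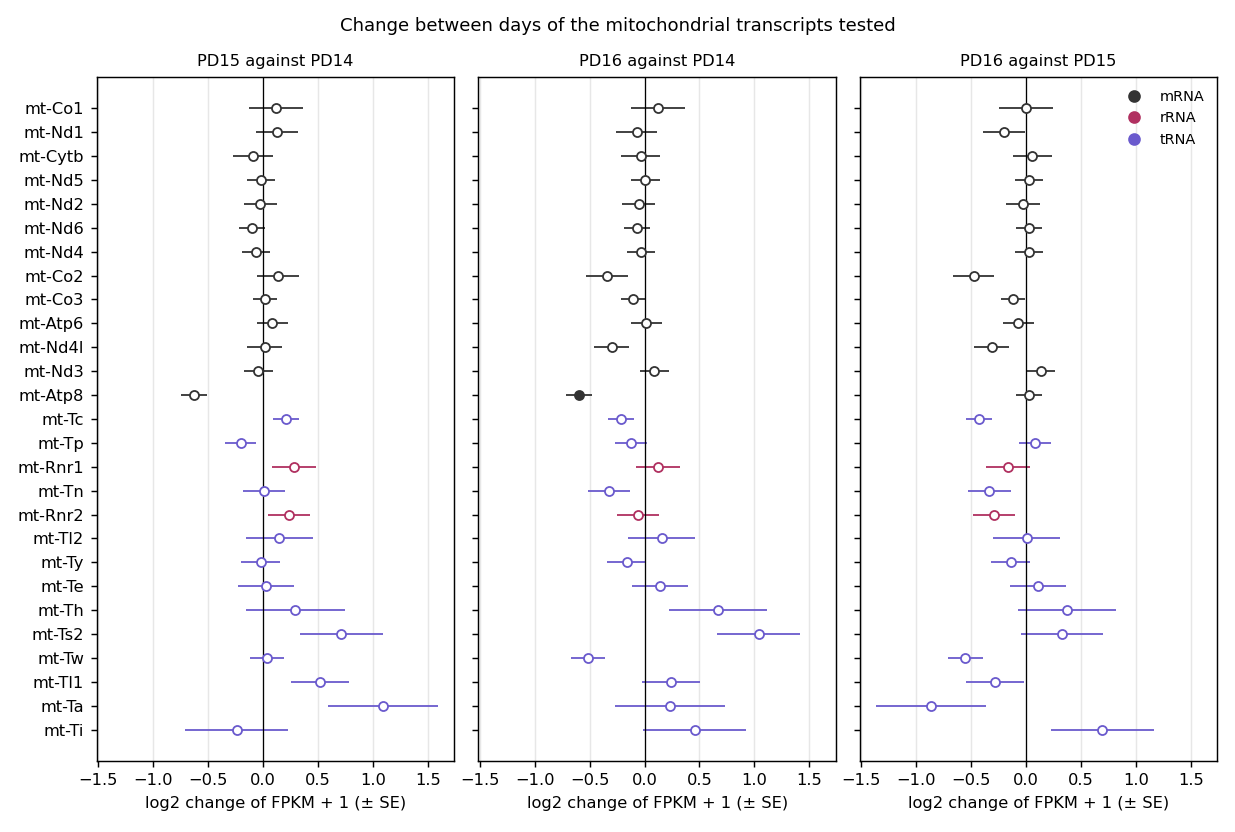
Change between days of the 27 mitochondrial transcripts tested, as the difference of mean log2(FPKM + 1) with its SE from limma. Filled points have an adjusted p under 0.05, which holds only for mt-Atp8 in PD16 against PD14, where the change was -0.60.

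The shares of the 3 leading mRNAs in the mRNA pool varied less between libraries than the size of the pool. The 13 mRNAs summed to 15273 to 16853 FPKM at PD14, 15032 to 19473 FPKM at PD15 and 14792 to 18444 FPKM at PD16. The share of mt-Co1 in this sum was 37.0% ± 1.02 on PD14, 39.0% ± 1.44 on PD15 and 39.7% ± 0.763 on PD16 (SD over 3 libraries). That of mt-Nd1 was 17.7% ± 0.592, 18.7% ± 0.839 and 16.6% ± 0.134, and that of mt-Cytb 18.0% ± 0.755, 16.4% ± 0.613 and 17.4% ± 0.263. For mt-Co1 all PD16 libraries were above all PD14 libraries, at 39.2% to 40.6% against 36.0% to 38.0%. For mt-Nd1 the PD16 libraries, at 16.5% to 16.8%, were below all those of PD14 (17.2% to 18.3%) and of PD15 (17.8% to 19.4%). For mt-Cytb the PD15 libraries, at 16.0% to 17.1%, were below those of PD14, at 17.2% to 18.6%, and overlapped those of PD16. These shares use the levels as listed. They carry the uncertainty given above for the mRNAs inside the copied stretch and for mt-Co1 and mt-Nd4, which lie partly in it. As listed, mt-Co2 inside the stretch made up only 0.311% to 0.701% of the sum. The shares are therefore not read as the true make-up of the mRNAs. Shares of a sum over the members are given as a description, with no test.

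The size of the pool differed between libraries of the same day more than between the day means, which were 16038, 16611 and 16271 FPKM. PD15 replicate 3, the deepest library with 28.7 M mapped fragments, was the highest of the 9 libraries for 6 of the 13 mRNAs, and PD16 replicate 1 was among the 3 highest for 10. PD16 replicate 3 was the lowest for 4 and among the 3 lowest for 11. Averaged over the 7 mRNAs not wholly inside the stretch, the deviation from the mean of all libraries was 0.20 in PD15 replicate 3 and 0.16 in PD16 replicate 1, but -0.13 in PD16 replicate 3 and -0.10 in PD15 replicate 2.

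Nuclear genes for subunits of the same complexes deviated in the same direction in some of the libraries and less in others. In PD15 replicate 3 the mean deviation was 0.16 for the 35 complex I genes tested, 0.14 for the 9 of complex III, 0.11 for the 14 of complex IV and 0.20 for the 18 of ATP synthase. In PD16 replicate 3 it was -0.13, -0.12, -0.16 and -0.15 in the same order. In PD15 replicates 1 and 2, where the mRNAs were at -0.09 and -0.10, these lists were at -0.11 to -0.05. In PD16 replicate 1, the second highest for the mRNAs at 0.16, the nuclear genes were at 0.05, 0.02, 0.08 and 0.09, and in PD16 replicate 2 at -0.02 to 0.00 against -0.06. In PD14 replicate 3 the nuclear genes stood higher than the mitochondrial mRNAs, with 0.16, 0.22, 0.12 and 0.09 against 0.08. These are values of the libraries, and what set them apart was not tested.

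**Figure D3:**
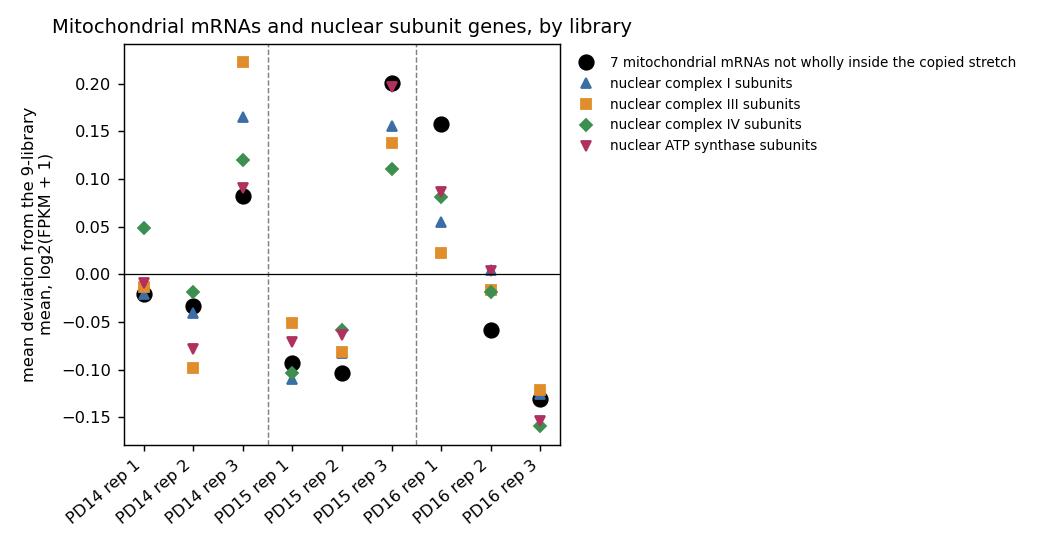
Mean deviation of each gene group from its mean over the 9 libraries, on the log2(FPKM + 1) scale, by library. The black points of the 7 mitochondrial mRNAs and the coloured points of the nuclear subunit genes are both above 0 in PD15 replicate 3 (0.20 for the mRNAs) and both below 0 in PD16 replicate 3 (-0.13).

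The rRNAs were listed far below the leading mRNAs. The gene mt-Rnr1, the RNA of the small mitochondrial ribosomal subunit, was at 324, 219 and 232 FPKM at PD14, 270.1, 274 and 403 FPKM at PD15 and 334, 250.1 and 253 FPKM at PD16. The gene mt-Rnr2, the RNA of the large subunit, was at 223, 136 and 160.3 FPKM at PD14, 184, 174 and 247 FPKM at PD15 and 184, 145 and 161 FPKM at PD16. All pairs of days overlapped for both, and PD14 replicate 1 and PD15 replicate 3 were high for both. The ratio of mt-Rnr1 to mt-Rnr2 was 1.45 to 1.61 at PD14, 1.47 to 1.63 at PD15 and 1.57 to 1.81 at PD16, so the days overlapped. Whether the libraries were selected for poly(A) RNA is not given in the sources used here. Beside these levels, Rn7sk, a nuclear RNA without a poly(A) tail, was at 1.60 to 5.23 FPKM, and the 8 such RNAs with a row summed to 3.37 to 7.71 FPKM per library. From PD14 to PD15 the fitted change of Rn7sk was 0.75 (SE 0.17, adjusted p = 0.0948, limma), beside 0.28 for mt-Rnr1 and 0.23 for mt-Rnr2 (adjusted p = 0.547 and 0.611, limma), and 0 of the 3 were called. Rn7sk was called from PD14 to PD16, at 0.73 (SE 0.17, adjusted p = 0.0494, limma), beside 0.12 and -0.06 for the rRNAs. That call was lost in 8 of 9 fits that left out a library, all but the one without PD15 replicate 1, and the adjusted p ran from 0.0430 to 0.127 over all alternatives. From PD15 to PD16 the change of Rn7sk was -0.02, beside -0.16 and -0.29. Its part in the rRNA and tRNA levels was not tested.

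Of the 22 tRNAs, 12 had a mean above 1 FPKM on at least 1 day and were tested. Of the 10 others, 4 (mt-Tf, mt-Ts1, mt-Tg, mt-Td) had 0 fragments in every library, which allows up to 2.17 FPKM in a library, and 6 had some. All 5 tRNAs inside the copied stretch were among these 10, and together they held at most 2 fragments in any library. Fragments ranged widely among the tRNAs, from 456 to 958 per library for mt-Tc, 417 to 715 for mt-Tp and 241 to 571 for mt-Tn down to single fragments, so the leading tRNAs carry less counting error than mt-Atp8, at 6 to 15 fragments, or mt-Nd3, at 40 to 71.

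The 3 leading tRNAs are shown because they hold most of the tRNA signal, with the anticodon in capitals. All are encoded on the minus strand, at chrM:5192-5257, chrM:15356-15422 and chrM:5089-5159, and carry cysteine, proline and asparagine. The tRNA for tryptophan (chrM:4950-5016, plus strand) follows, since it had the lowest adjusted p among the tRNAs:
mt-Tc: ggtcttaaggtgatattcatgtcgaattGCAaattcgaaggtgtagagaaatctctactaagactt
mt-Tp: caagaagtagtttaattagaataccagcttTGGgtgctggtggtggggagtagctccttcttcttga
mt-Tn: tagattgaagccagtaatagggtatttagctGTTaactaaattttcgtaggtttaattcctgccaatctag
mt-Tw: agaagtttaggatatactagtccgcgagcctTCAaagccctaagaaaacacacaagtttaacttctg
The 8 tRNAs encoded on the minus strand summed to 826 to 1214 FPKM per library, and the 14 on the plus strand to 78.2 to 159 FPKM. Without knowledge of strand in the counting, the fragments of these genes may include the opposite precursor. Fragments of a mature tRNA and of an uncut precursor on the same strand cannot be told apart here either. The tRNA values are therefore fragments over the tRNA genes and not levels of mature tRNA.

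The level of mt-Tc was 439, 351 and 382 FPKM at PD14, 433, 418 and 505 FPKM at PD15 and 345, 304 and 359 FPKM at PD16. All PD16 libraries were below all PD15 libraries, while PD14 overlapped both. The change from PD15 to PD16 was -0.43 (SE 0.12, adjusted p = 0.147, limma) and was not called. The tRNA mt-Tp was at 345 to 350.2 FPKM at PD14, 244 to 371 FPKM at PD15 and 287 to 354 FPKM at PD16, and mt-Tn at 188 to 289, 196 to 279.9 and 149.5 to 201 FPKM. Neither separated any pair of days.

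The level of mt-Tw was 18.3, 19.2 and 13.2 FPKM at PD14, 14.1, 20.7 and 17.1 FPKM at PD15 and 11.3, 10.5 and 12.3 FPKM at PD16. All PD16 libraries were below all earlier ones, on 16 to 21 fragments each against 18 to 33. The change was -0.52 from PD14 to PD16 (SE 0.16, adjusted p = 0.0921, limma) and -0.55 from PD15 to PD16 (SE 0.16, adjusted p = 0.149, limma). Neither was called. The exact 95% Poisson interval of the pooled level was 8.59 to 14.8 FPKM at PD16 and 13.5 to 21.3 FPKM at PD14, and these overlap. As for mt-Atp8, this overlap does not by itself show that counting error covers the difference.

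The serine tRNA mt-Ts2 had the largest change among members with more than 10 fragments on average. Its level was 6.22, 15.4 and 8.32 FPKM at PD14, 19.3, 11.4 and 18.3 FPKM at PD15 and 11.4, 28.4 and 25.3 FPKM at PD16, on 9 to 38 fragments. The days overlapped, and the change from PD14 to PD16 was 1.04 (SE 0.38, adjusted p = 0.143, limma). The alanine tRNA mt-Ta had a larger fitted change from PD14 to PD15, at 1.09 (SE 0.50, adjusted p = 0.354, limma), but held 0 to 6 fragments per library. It averaged 0.712 FPKM at PD14, 2.29 FPKM at PD15 and 0.831 FPKM at PD16, so it passed the filter only through the day on which it was high, and the size of this change is favoured by that choice.

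Of the other tRNAs tested, mt-Tl2 (leucine) was at 38.5 to 84.3 FPKM, mt-Ty (tyrosine) at 22.4 to 38.8 FPKM, mt-Te (glutamate) at 13.01 to 28.1 FPKM, mt-Th (histidine) at 5.13 to 25.6 FPKM and mt-Tl1 (leucine) at 6.53 to 16.7 FPKM. The isoleucine tRNA mt-Ti was at 0 to 2.43 FPKM. None of these separated any pair of days, and the lowest adjusted p among their changes was 0.396 (mt-Tl1, PD14 to PD15, limma).

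**Figure D4:**
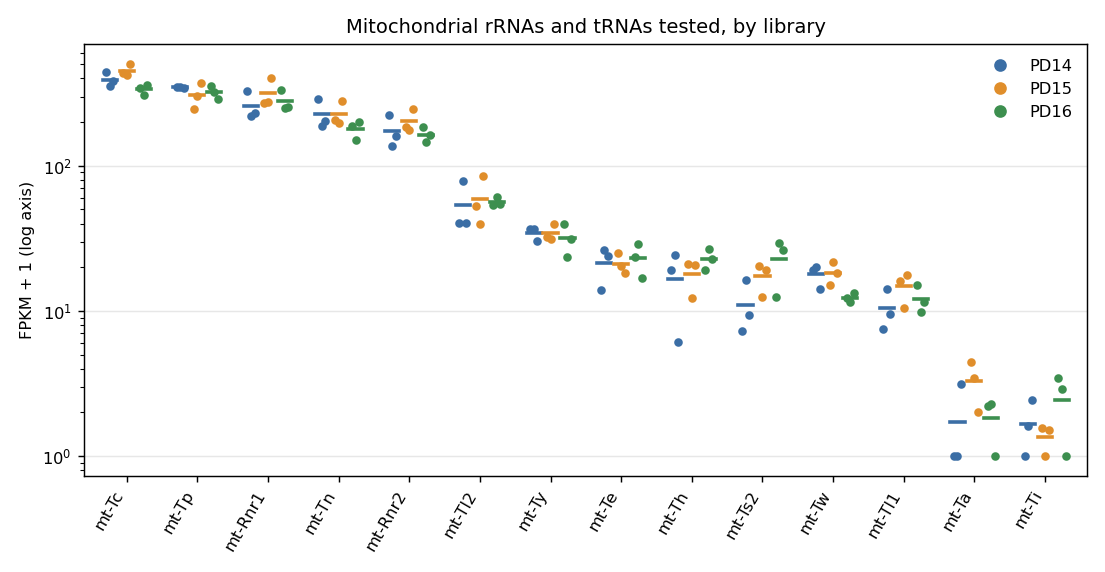
FPKM + 1 of the 2 rRNAs and the 12 tRNAs tested, on a log axis, with a point for each library, a bar for the mean of FPKM + 1 over 3 libraries and colours for the day. The PD16 points of mt-Tw (10.5 to 12.3 FPKM) lie below the earlier ones, and the days overlap for most other genes.

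Among the 14 rRNAs and tRNAs tested, 0 were called in any of the 3 comparisons by limma, beside the shares of all genes given above. From PD14 to PD15, 11 were higher and 3 lower, with a median change of 0.18, and 0 had an unadjusted p under 0.05. This median was 0.0741 without PD14 replicate 3, 0.0888 without PD15 replicate 3 and 0.298 without PD15 replicate 2. Of the 14, mt-Ta passed the filter only through PD15 and mt-Ti only through PD16, so these counts and medians give no support to a direction. The median was 0.0737 without a filter and 0.179 with a mean above 1 FPKM on all 3 days, which leaves out both. Over the same days the fitted change of Rn7sk was 0.75, and 8 of 10 oocyte markers were higher, 1 of them called. Of all genes, 51.9% were higher and 0.678% were called in this comparison. The part of Rn7sk or of the oocyte markers in this median was not tested. From PD14 to PD16, 8 were higher and 6 lower, with a median of 0.13. This median did not keep its sign, being -0.0246, -0.0456 and -0.0079 without PD14 replicate 1, 2 and 3, -0.015 without PD16 replicate 1 and -0.0916 without a filter, and it was 0.0307 without PD16 replicate 2 and 0.030 with a mean above 1 FPKM on all 3 days. The filter was applied anew after each library was left out, so the genes behind this and the other medians here could differ from the 14. Of the 14, 2 (mt-Tw and mt-Ts2) had an unadjusted p under 0.05, against 22.8% of all genes. From PD15 to PD16, 6 were higher and 8 lower, with a median of -0.15, which ran from -0.326 without PD16 replicate 1 to -0.0159 without PD15 replicate 3, and 2 (mt-Tc and mt-Tw) had an unadjusted p under 0.05, a share near the 14.1% of all genes. For these 2 the PD16 libraries were all below the PD15 libraries, which held for 9.73% of all genes. The sums of the oocyte markers were also lower in all PD16 libraries than in the PD15 libraries, and their part in this was not tested. The median is that of the genes that passed the filter on low values, not of all 24.

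The nuclear genes that make, process and use these transcripts were called at shares to be read against 0.678%, 4.25% and 0.729% of all genes from PD14 to PD15, PD14 to PD16 and PD15 to PD16, and each list had 0 or 1 call in a comparison. Of 19 genes for mitochondrial transcription and maintenance of its DNA, 1 was called, and in both comparisons with PD14. This was Mgme1, a nuclease that trims mitochondrial DNA ends, with a PD14 level of 7.62 ± 0.372 FPKM (SD, n = 3). It stood at 10.7 ± 0.927 FPKM on PD15 and 10.6 ± 0.172 FPKM on PD16. It rose by 0.44 (SE 0.07, adjusted p = 0.0337, limma) from PD14 to PD15 and by 0.43 (SE 0.07, adjusted p = 0.0148, limma) from PD14 to PD16. Without PD16 replicate 1 the adjusted p of the second change was 0.0604, and the first was lost without any single library of PD14 or PD15 (up to 0.0893, limma). Of 34 genes for mitochondrial RNA processing and stability, 1 was called from PD14 to PD16, the pseudouridine synthase gene Pus1, higher by 0.33 (SE 0.07, adjusted p = 0.0363, limma). Of 7 regulators of mitochondrial gene expression, 1 was called over the same days, the coactivator gene Pprc1, higher by 0.44 (SE 0.10, adjusted p = 0.0449, limma). Both calls were lost in 7 of 9 fits that left out a library, with an adjusted p of up to 0.102 and 0.143. Over these days 14 of 19 transcription genes and 28 of 34 processing genes were higher, with a median change of 0.10 and 0.08, where 52.2% of all genes were higher and their median was 0.01. In these lists, 3 of 19 and 6 of 34 genes had an unadjusted p under 0.05, against 22.8% of all genes.

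Of the nuclear subunit genes, 0 of 35 in complex I and 0 of 9 in complex III were called in any comparison by limma. At an unadjusted p under 0.05 these were 1, 2 and 0 of 35 and 0, 1 and 0 of 9 from PD14 to PD15, PD14 to PD16 and PD15 to PD16, where 14.7%, 22.8% and 14.1% of all genes were. From PD14 to PD16, 24 of 35 complex I genes were lower, with a median of -0.08, where 52.2% of all genes were higher. Lower were also 6 of 9 in complex III and 10 of 14 in complex IV, but 8 of 18 in ATP synthase (median 0.02). Averaged over the complex I genes, the deviation was -0.02, -0.04 and 0.16 in the PD14 libraries and 0.05, 0.00 and -0.13 at PD16. The days overlapped, and replicate 3 stood apart on both, so no direction is read from these counts. In complex IV, 1 of 14 was called from PD14 to PD16, the testis-type subunit gene Cox6b2, at -0.26 (SE 0.06, adjusted p = 0.0445, limma). In ATP synthase, 1 of 18 was called from PD15 to PD16, Atp5e, which encodes the epsilon subunit, at -0.59 (SE 0.10, adjusted p = 0.0462, limma). The first was lost without any single library (up to 0.145) and the second in 7 of 9 such fits (up to 0.141). In the same order of comparisons, 2, 2 and 1 of 14 and 1, 0 and 1 of 18 had an unadjusted p under 0.05. Among 78 mitochondrial ribosomal protein genes and 17 genes for enzymes that charge mitochondrial tRNAs, 0 were called in any comparison by limma. At an unadjusted p under 0.05 these were 5, 6 and 1 of 78 and 2, 3 and 1 of 17 in the same order of comparisons, against the same shares of all genes.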

How the data were processed

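RNA was sequenced from 9 libraries, 3 for each day. The study counts ovaries as biologically independent, but the labels name no animals, so p-values measure the spread between these libraries. The authors deposited FPKM, without counts. The submitters' processing notes name HISAT2 2.0.5 and mm10. The counter, its annotation, its use of strand, its handling of fragments with several matches and any poly(A) selection are not given in the sources used here. Positions and sequences are those of GENCODE M21, whose lengths also gave the mapped fragments from the steps of the low FPKM (20.4 to 28.7 M per library). A level of 0 was read against a floor of 3 fragments.

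A gene entered the test when its FPKM averaged above 1 for 1 day or more (15495 genes). All 9 libraries were fitted together by limma 3.58.1 (R 4.3.3, intensity trend) on log2(FPKM + 1), two-sided, with Benjamini-Hochberg adjustment over all genes and calls at an adjusted p under 0.05. Sums, shares and medians over members carry no test. Python 3.11.15, pandas 2.3.3, NumPy 2.4.6, SciPy 1.17.1 and Matplotlib 3.10.9 served for the rest. The fit was tested on simulated data.

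Members, lists and tests were chosen with earlier results of these data known. Every member could be named, as could the nuclear copies, cell type markers, RNAs without a poly(A) tail and called genes of 9 pathway lists. Alternatives were pseudocounts of 0.1 and 10, other filters, scalings and limma settings, a replicate block, and each library left out in turn.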

Additional observations from a re-analysis of the deposited data

How the results depend on the processing

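Of 81 changes of the 27 members tested, 40 kept their sign under every alternative and 41 did not, 0 of them called. The call of mt-Atp8 and those of 9 nuclear genes, added after seeing the data, kept their sign under 20 alternatives, but those of Cox6b2, Rn7sk, Pprc1, Pus1, Atp5e, Mgme1 (PD14 to PD15) and Gm28661 were lost under 15, 16, 14, 12, 11, 11 and 8 of them, and those of Cyp19a1 and Amh under 8 and 4. 0 rRNAs or tRNAs were called under any of them. The single call among the 13 mRNAs from PD14 to PD16 (mt-Atp8) was lost, leaving 0, without a filter on low values, when only the 2 days compared were fitted, and with the replicate block, and leaving out each library gave 0 to 1. For mt-Atp8 the adjusted p (limma) ran from 0.0212 to 0.0993 in this comparison and from 0.0393 to 0.174 from PD14 to PD15. That second comparison had 1 mRNA called at a pseudocount of 10, and 0 to 1 when each library was left out, with 1 without PD16 replicate 2. The median change of the rRNAs and tRNAs from PD14 to PD16 was -0.0916 without a filter, which adds genes near 0, and -0.0456 to 0.180 with each library left out. When a library was left out the filter was applied anew, so the genes behind this median could differ. Its sign turned without any single PD14 library (-0.0246 and -0.0456 without replicates 1 and 2) or PD16 replicate 1. From PD15 to PD16 it was -0.326 to -0.0159 with each library left out, the lowest of these without PD16 replicate 1, with -0.250 without PD15 replicate 2, -0.0827 without PD16 replicate 2 and -0.0159 without PD15 replicate 3. The labels do not say whether same-numbered libraries were pairs, and 2 of 9 same-numbered combinations correlated above 0.1 (r from -0.214 to 0.159). With the replicate block, 24, 227 and 56 genes of all tested were called from PD14 to PD15, PD14 to PD16 and PD15 to PD16, against 105, 659 and 113 without it. Without a filter these were 29, 172 and 24, with only the 2 days compared 47, 320 and 93, and with each library left out as few as 3, 92 and 14, so the background shares vary with the setting. An equal summed FPKM gave 417 from PD14 to PD16, and a mean above 1 FPKM on all 3 days gave 58 from PD14 to PD15. Unless stated, the cause of these shifts was not tested. Depth limits mt-Atp8 (6 to 15 fragments per library) and tRNAs such as mt-Tw (16 to 33) and mt-Ta (0 to 6).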
